A study of Mus musculus with 2 samples.

Results

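The genes described here are 9 genes of prostaglandin and lipoxygenase metabolism in the mouse uterus: Pla2g4a, Ptgs1, Ptgs2, Ptges, Ptgis and Alox15, which belong to synthesis, Hpgd, which belongs to breakdown, and Ptger4 and Ppard, which are receptors. They were taken by name, with earlier results of these data known. Each was given every peak whose summit lay within its RefSeq GRCm38 span, introns included. In this way 28 of the 21192 peaks of N4-acetylcytidine (ac4C) in the list fell to these genes. Of the 9 genes, 6 held a summit and 3 did not. The 6 were Pla2g4a, Ptgs1, Ptgis, Alox15, Ptger4 and Ppard, and the 3 were Ptgs2, Ptges and Hpgd.

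Prostaglandins are lipid signals made from arachidonic acid, which a phospholipase frees from membranes. The cyclooxygenases Ptgs1 and Ptgs2 turn it into prostaglandin H, and terminal synthases then make single products, such as prostaglandin E (Ptges) and prostacyclin (Ptgis). Lipoxygenases such as Alox15 turn the same fatty acid into hydroxylated products instead. Hpgd inactivates prostaglandins, Ptger4 is a cell surface receptor for prostaglandin E, and Ppard is a nuclear receptor that prostacyclin can activate. In the mouse uterus this pathway is known for its part in implantation, where phospholipase and cyclooxygenase products act on the timing of attachment and on the stroma. ac4C is an acetylated cytidine that the enzyme Nat10 places in RNA.

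The tissue was whole uterus from wild-type mice at gestational day 4, and polyA RNA was taken from it. It had 1 library of RNA fragments pulled down with an antibody to ac4C and 1 input library that was not pulled down. Strain, age, number of animals and pooling were not given in the labels. No group had a replicate, so every statement is about these 2 libraries and no test between conditions could be made. Fewer cells of a type and less RNA per cell cannot be told apart in whole tissue.

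The fold enrichment of a peak is the authors' value at the summit, signal over background, as their peak caller gave it. Fragment numbers at the summits were worked back from fold enrichment and p-value, and their 95% Poisson interval covers counting error of the pulled-down library only, with the background taken as known. Over the whole list the median fold enrichment was 5.58 (interquartile range 4.33 to 7.38), on a median of 22 fragments and a background of 2.63. Markers of the tissue held peaks: 7 of 7 of uterine stroma, 5 of 5 of myometrium, 4 of 4 of endothelium and 5 of 6 of epithelium (all but Epcam). Peaks lay in 2 of 6 markers of blood and immune cells, in 0 of 4 of the embryo and in 1 of 4 of ovary and oviduct. Of all protein-coding genes, 30.7% held the summit of a peak. The markers were chosen with earlier results of these data known, and sets this small say little about which cells were present.

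Presence of a peak was first set against the background of all genes. Among 21900 protein-coding genes of the RefSeq table, 6717 held a summit (30.7%), against 6 of the 9 pathway genes (66.7%, 95% Wilson interval 35.4 to 87.9%). Among the 13156 genes whose spans fell within the range of these 9 (8.20 to 131.7 kb), the share was 34.5%. By role, 4 of 6 synthesis genes, 0 of 1 breakdown gene and 2 of 2 receptor genes held a summit. Transcript abundance was not part of these counts, and its part in them was not tested. These 9 genes were chosen with earlier results of these data known and were not drawn at random. The interval therefore cannot compare their share with those of all genes, and a set of 9 genes says little on its own.

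**Figure D1:**
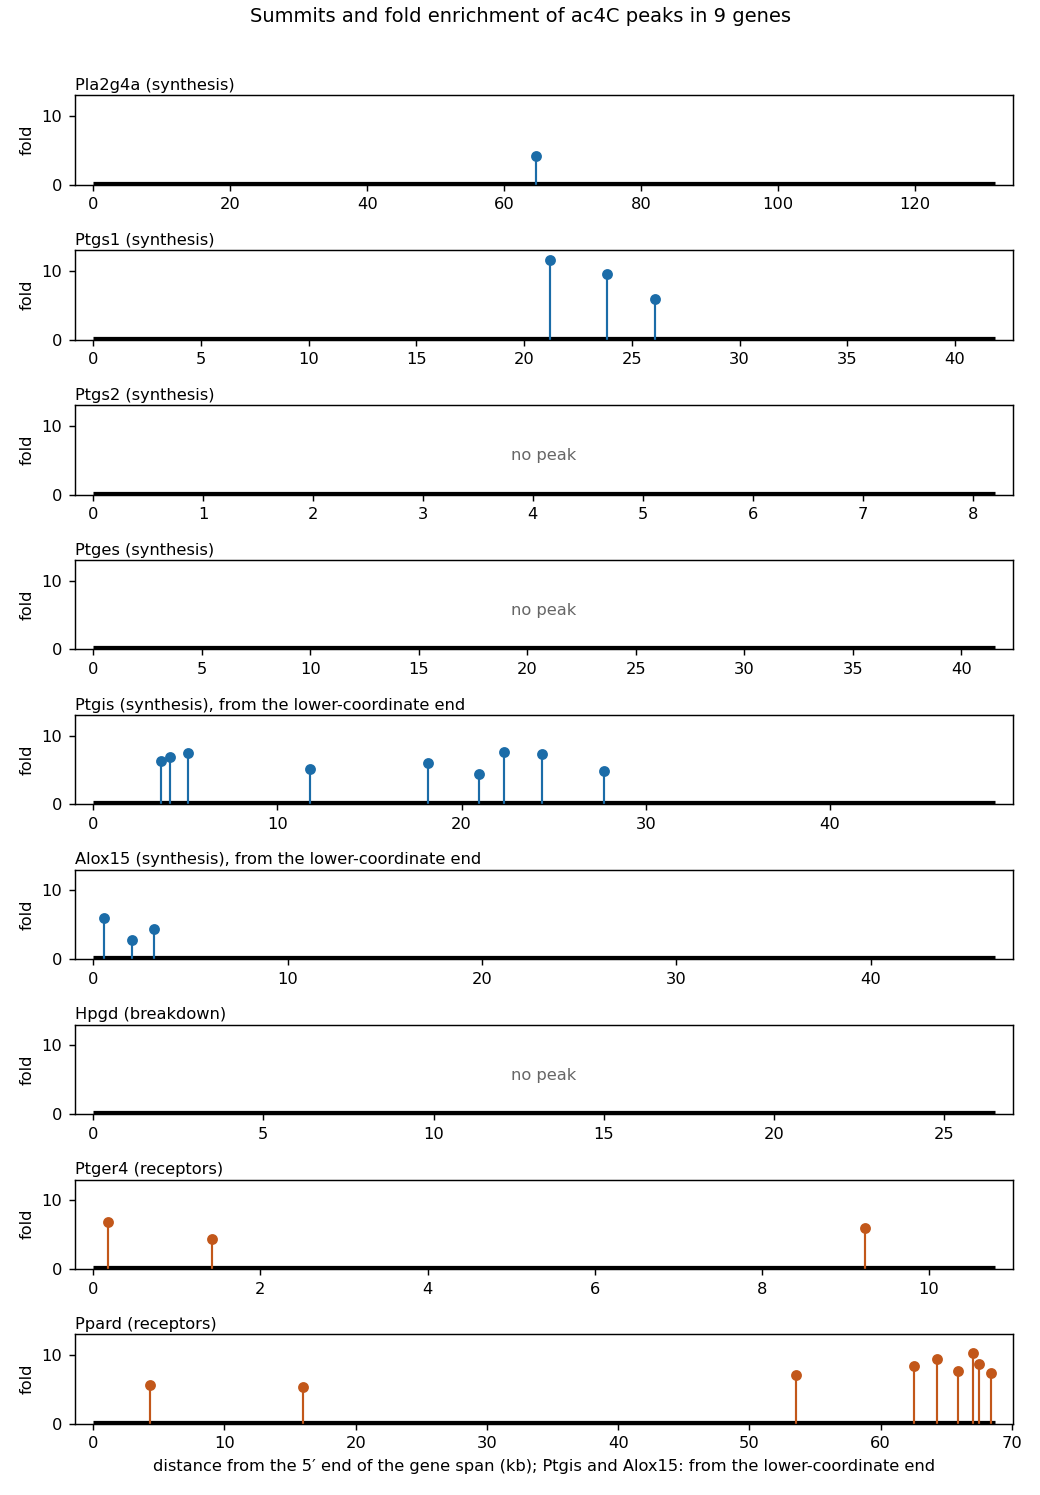
Each panel is 1 gene, drawn as a black bar of its span, with the distance along the span in kb on the horizontal axis and the fold enrichment of each peak on the vertical axis. Distance is from the 5′ end, except in Ptgis and Alox15, where it is from the lower-coordinate end. Of the 9 peaks of Ppard, 6 lie in the last 10% of the span, those of Ptgis lie in the lower-coordinate part, and Ptgs2, Ptges and Hpgd hold none.

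The 28 peaks were shared unevenly. Ptgis and Ppard, the synthase and a nuclear receptor of prostacyclin, held 9 each and together 64.3% of all. Such a number was reached by 396 of the genes with a peak (5.90%). Ptgs1, Alox15 and Ptger4 held 3 each, and Pla2g4a held 1. Scaled to the length of the span, the order changed, from 2.78 peaks per 10 kb in Ptger4 and 1.84 in Ptgis to 1.31 in Ppard, 0.717 in Ptgs1, 0.647 in Alox15 and 0.0759 in Pla2g4a. Peaks covered 18.4% of the span of Ptger4, a short gene, and 0.153% of that of Pla2g4a.

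Release of arachidonic acid was represented by Pla2g4a (NCBI gene 18783), the cytosolic phospholipase that starts the pathway. Its single peak lay on chromosome 1 from 149896576 to 149896776, near the middle of a span of 131.7 kb and 64.7 kb from its 5′ end. It rested on 18 fragments over a background of 3.59, with a fold enrichment of 4.14 (95% interval 2.54 to 6.42). This was the lowest among the highest peaks of the 6 genes, and 11.9% of all genes with a peak stood at or below it. When only peaks with a −log10 q of 10 or more were kept, this peak dropped out, and with it the gene.

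The cyclooxygenases differed in presence. Ptgs1 (NCBI gene 19224), the constitutive form, held 3 peaks on chromosome 2, with summits within 4.84 kb of each other in the inner part of the span and 7536 to 12376 bp past the start listed in RefSeq. The first, from 36237507 to 36238065, had 26 fragments over a background of 1.33 and a fold enrichment of 11.6 (7.72 to 16.8), the highest of the 28 peaks. The second, from 36240471 to 36240841, had 28 fragments over 2.01 and stood at 9.62 (6.51 to 13.8). The third, from 36242732 to 36242943, had 22 fragments over 2.89 and stood at 5.91 (3.80 to 8.82). The values fell along the gene while the background rose, and the 3 intervals overlapped. Of all genes with a peak, 87.4% had a highest peak at or below that of Ptgs1.

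Ptgs2 (NCBI gene 19225; chromosome 1, 150100031 to 150108234), the inducible cyclooxygenase, held 0 peaks. The peak nearest to it was the single peak of Pla2g4a, 203 kb away, and 0 peaks lay in the 138.7 kb between the spans of these neighbouring genes. No background value was listed where there was no peak, so it is not known how strong an enrichment in Ptgs2 would have been called. That none was detected does not show that there was none. At a background below 0.5 fragments, the weakest peak of the list stood at 3.34, but whether Ptgs2 had such a background is not known.

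The terminal synthases also differed. Ptgis (NCBI gene 19223), prostacyclin synthase, held 9 peaks on chromosome 2, with fold enrichments from 4.43 to 7.63 and a median of 6.27. The highest, from 167225400 to 167225625, had 20 fragments over a background of 1.75, at 7.63 (4.80 to 11.6). The next, from 167208219 to 167208452, had 17 fragments over 1.40 and stood at 7.50 (4.54 to 11.8). The lowest, from 167224076 to 167224303, had 17 fragments over 3.06, at 4.43 (2.68 to 6.94). Fragments numbered 8 to 24 over the 9 peaks and backgrounds ran from 0.744 to 3.06. A value between 4.80 and 6.94 lay in the intervals of all 9 peaks, so the intervals did not tell them apart. Such overlap does not show that the 9 were equal.

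In place, the Ptgis summits ran from 3.71 to 27.7 kb from the lower-coordinate end of a span of 49.0 kb, and the remaining 21.3 kb at the other end held none. Neighbouring summits lay 0.479 to 6.61 kb apart (median 2.44 kb), and 8 of the 9 peaks were at most 254 bp wide. At 1 of the 9, from 167221298 to 167221527, the summit also lay in the long non-coding RNA gene Gm52569, and the list gave no strand to assign it. Ptges (NCBI gene 64292; chromosome 2, 30889471 to 30931020), the inducible prostaglandin E synthase, held 0 peaks. The nearest peak lay 8.44 kb outside it, in Prrx2, with a fold enrichment of 8.53.

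The lipoxygenase Alox15 (NCBI gene 11687) held 3 peaks on chromosome 11, all within 3.15 kb of the lower-coordinate end of a span of 46.4 kb. The first, from 70344401 to 70345374, was the widest of the 28 at 974 bp and had the most fragments, 48, over a background of 7.09, with a fold enrichment of 6.06 (4.50 to 7.99). The second, from 70345904 to 70346338, had 29 fragments over 9.63 and stood at 2.82 (1.92 to 4.01), the lowest of the 28. The third, from 70347249 to 70347462, had 34 fragments over 7.004 and stood at 4.37 (3.07 to 6.06). The intervals of the first and second did not overlap, and 1 of 81 pairs of peaks within the same gene was apart in this way. Most of the 81 pairs came from Ptgis and Ppard, with 9 peaks each. The share over the whole list was not computed, so this does not make the pair unusual.

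Alox15 had the highest backgrounds of the 6 genes. They ran from 7.004 to 9.63 fragments and were at or above those of 83.2 to 89.2% of all peaks in the list, while those of the other genes except Ptger4 did not pass 3.59. In the list as a whole, peaks at higher background had lower fold enrichments, with a median of 6.48 at backgrounds of 0.5 to 2 fragments and 3.76 at 8 to 32. Without peaks wider than 631 bp, or with the median over its peaks, the value of Alox15 moved from 6.06 to 4.37, outside its counting interval.

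**Figure D2:**
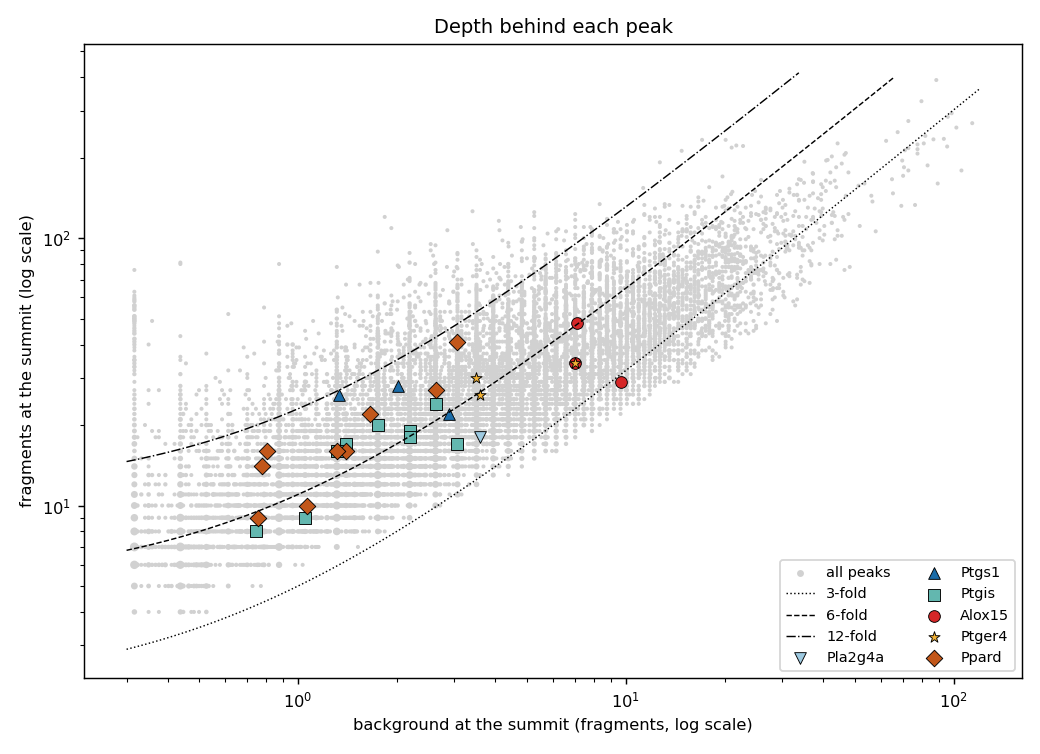
Both axes are logarithmic and count fragments, the background at the summit on the horizontal axis and the pulled-down fragments on the vertical axis. Grey points are all peaks of the list, coloured marks are the peaks of the 6 genes, and lines join points of equal fold enrichment. The Alox15 peaks lie farthest right, at backgrounds of 7.004 to 9.63, and 1 peak of Ptger4 shares its point with 1 of them.

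Hpgd (NCBI gene 15446; chromosome 8, 56294552 to 56321046), the dehydrogenase that inactivates prostaglandins, held 0 peaks in a span of 26.5 kb. The nearest peak lay 1000 kb away, in Hand2. As for Ptgs2 and Ptges, this says that enrichment was not detected and not that the transcript lacked ac4C.

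Among the receptors, Ptger4 (NCBI gene 19219) held 3 peaks on chromosome 15, and they lay at both ends of a span of 10.8 kb. The highest, from 5243739 to 5244197, had its summit 177 bp past the start of the gene, with 30 fragments over a background of 3.50 and a fold enrichment of 6.89 (4.72 to 9.74). The second, from 5242386 to 5243323, had its summit 1.42 kb past the start, with 34 fragments over 7.004, at 4.37 (3.07 to 6.06). The third, from 5234771 to 5235358, lay 1.55 kb from the 3′ end, with 26 fragments over 3.59, at 5.88 (3.92 to 8.52). The intervals overlapped, and 53.8% of all genes with a peak had a highest peak at or below that of Ptger4.

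The highest Ptger4 peak crossed the annotated start of the gene. RefSeq windows from 250 bases before to 50 bases after a start were available for 7 of the 9 genes, and only that of Ptger4 was touched by a peak. Over all 17492 protein-coding genes with such a window, 674 were touched (3.85%). In the wider list of the pathway described further on, 2 of 47 genes with a window were touched, Slco2a1 and Ptger3. The windows of Ptger4 and Slco2a1 are shown to set the kinds of overlap side by side, with the bases inside the peak in capitals, read 5′ to 3′ on the strand of the gene and cut 30 bases after the start (RefSeq, GRCm38.p6). Ptger4 lies on the minus strand, at chr15:5244158-5244437, and Slco2a1 on the plus strand, at chr9:103008237-103008516.
Ptger4: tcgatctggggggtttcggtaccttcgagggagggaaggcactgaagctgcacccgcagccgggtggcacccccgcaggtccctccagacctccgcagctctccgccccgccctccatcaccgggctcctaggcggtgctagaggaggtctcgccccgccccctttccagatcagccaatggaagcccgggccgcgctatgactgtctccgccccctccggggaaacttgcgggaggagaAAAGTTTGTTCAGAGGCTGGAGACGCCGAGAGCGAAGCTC
Slco2a1: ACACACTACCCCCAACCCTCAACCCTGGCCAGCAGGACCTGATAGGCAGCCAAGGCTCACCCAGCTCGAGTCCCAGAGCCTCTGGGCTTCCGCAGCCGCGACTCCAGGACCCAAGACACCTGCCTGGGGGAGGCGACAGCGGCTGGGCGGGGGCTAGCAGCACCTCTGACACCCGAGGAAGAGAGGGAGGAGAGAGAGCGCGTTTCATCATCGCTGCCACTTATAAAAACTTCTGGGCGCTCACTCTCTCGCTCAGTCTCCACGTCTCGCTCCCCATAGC

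In Ptger4 the peak took in 10 bases before the start and ran 448 bp past it, so that 40 of the 280 bases shown lay inside it. The rest of the bases shown lay before the start, which is also the 5′ end of the Ptger4 span, and so outside the gene. In Slco2a1, the transporter that takes prostaglandins into cells, the peak began 542 bp before the listed start and its summit lay 2 bp before it. All 280 bases shown were covered. The span of Slco2a1 begins further upstream, at 103007061, so the whole peak, from 103007945 to 103008679, lay inside the gene span. In Ptger3, another receptor of prostaglandin E, the peak began 21 bp past the start. Cytidine made up 35.0% of the bases shown of Ptger4, a share above that of 87.1% of all windows of this length, but 20.0% of the part inside the peak. In Slco2a1 cytidine made up 36.1%, above 89.6% of windows.

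ac4C has been described at cytidines repeated in step with the codon, so the letters CNNCNNCNNCNN were searched, with overlapping matches counted and both strands read. They occurred 10 times on the strand of the gene and 4 times on the other in Ptger4, and 5 and 2 times in Slco2a1. Most of the bases searched in Ptger4 lay outside the gene span, so the counts there are of genomic letters and not of its RNA. At least 1 match on the strand of the gene was found in 66.7% of 32851 windows, and on either strand in 86.3%. On the strand of the gene, 7.67% of windows had at least as many as Ptger4 and 22.9% at least as many as Slco2a1. No match lay wholly within the 40 bases of Ptger4 inside the peak, which says only that these letters are not in this stretch. A match describes the letters and not a modified site.

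Ppard (NCBI gene 19015), the nuclear receptor, held 9 peaks on chromosome 17, with fold enrichments from 5.32 to 10.3 and a median of 7.72. The highest, from 28299491 to 28299973, had 41 fragments over a background of 3.06, at 10.3 (7.49 to 13.9). The next, from 28296900 to 28297160, had 16 fragments over 0.805, at 9.42 (5.62 to 14.9). The lowest, from 28248671 to 28248934, had 10 fragments over 1.07, at 5.32 (2.80 to 9.38). A value between 7.49 and 9.38 lay within all 9 intervals. Of all genes with a peak, 82.6% had a highest peak at or below that of Ppard.

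Most Ppard peaks lay near the 3′ end of the gene. The last 10% of the span held 6 of them, with summits 0.302 to 6.20 kb from the 3′ end and fold enrichments from 7.35 to 10.3. The 3 others lay 15.2 to 64.4 kb from the 3′ end and stood between 5.32 and 7.08. The 2 sets of values did not overlap, although their intervals did. The 3 rested on 9 to 16 fragments and the 6 on 14 to 41. How often peaks of other genes part in this way was not computed, so this does not make Ppard unusual. The longest stretch without a summit was 37.5 kb. Exons were not told from introns, so the 3 other peaks could not be assigned to either.

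Over the genes with a listed strand, 6 of 16 peaks (37.5%) lay in the last 10% of the span, and all 6 were those of Ppard. Over all 14710 peaks in a single gene with a listed strand, the share was 25.1%, and 10.7% lay in the first 10%. Of the 16, 2 lay in the first 10%, 1 each in Ptger4 and Ppard.

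**Figure D3:**
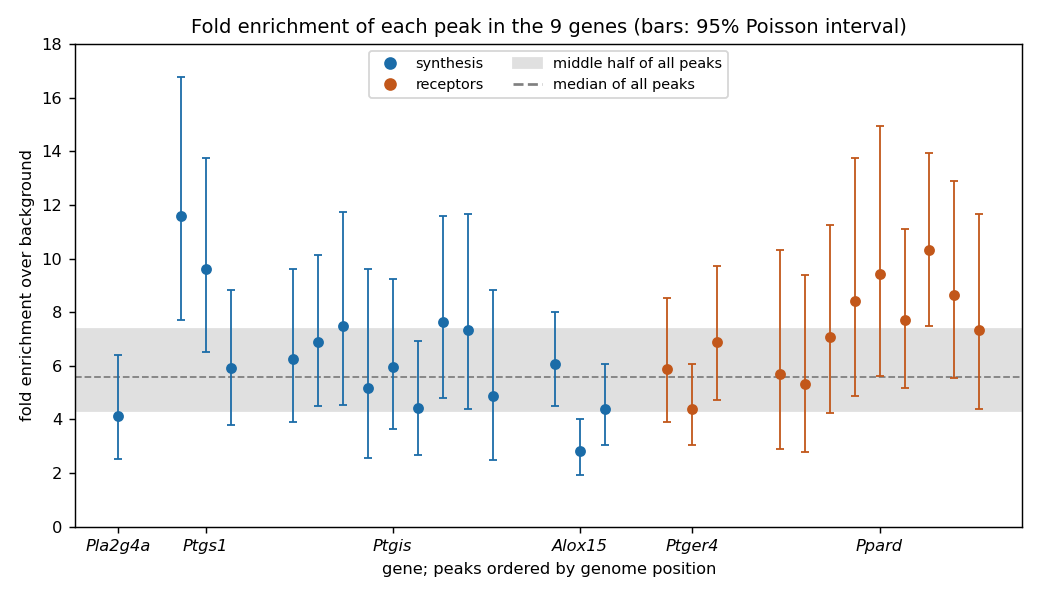
The vertical axis is the fold enrichment of each of the 28 peaks over background, and bars are 95% Poisson intervals of the fragments. Genes stand along the horizontal axis with their peaks in genome order, the grey band is the interquartile range of all 21192 peaks (4.33 to 7.38) and the dashed line their median, 5.58. Within each gene the bars overlap, except those of the first and second peak of Alox15.

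Ranked by the highest peak, the order was Ptgs1 (11.6), Ppard (10.3), Ptgis (7.63), Ptger4 (6.89), Alox15 (6.06) and Pla2g4a (4.14). The intervals overlapped in 13 of 15 pairs of genes, and the share over pairs of all genes was not computed. The 2 pairs apart were Ptgs1 and Ppard, each against Pla2g4a. Neighbours in the order were not told apart. The median of the 6 was 7.26, against 6.61 (interquartile range 5.05 to 9.06) over all 6717 genes with a peak, and 4 of the 6 stood above 6.61. A highest peak tends to be higher where it is taken over more peaks. The 6 genes held 1 to 9 peaks, against a median of 2 over all genes with a peak, and neither comparison was adjusted for this. Of the 28 peaks, 20 (71.4%) stood at or above the median of the list and 9 (32.1%) at or above its upper quartile. Their median width was 269.5 bp, against 315.5 bp over the list, and their median number of fragments was 19.5, against 22. Their median background was 2.10, against 2.63, and 10 of the 28 (35.7%) lay above the list median. Fold enrichments in the list were higher at lower background, and the shares above were not adjusted for this. Of the 28, 18 came from Ptgis and Ppard, so they are not 28 separate genes.

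By role, the medians of the highest peaks were 6.84 over 4 synthesis genes (4.14 to 11.6) and 8.61 over 2 receptor genes (6.89 and 10.3), and breakdown gave no value. These ranges overlapped. The 4 synthesis genes held 16 peaks and the 2 receptor genes 12.

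A wider list of 57 genes of prostaglandins, lipoxygenases and leukotrienes, the 9 genes left out, was read in the same way. Of these, 56 were found in the gene table by symbol, and Oxer1 was not. A summit lay in 20 of the 56 (35.7%, interval 24.5 to 48.8%), near the 30.7% of all protein-coding genes. By role these were 11 of 31 synthesis genes, 3 of 6 genes of breakdown and transport, and 6 of 19 receptor genes. Their median at the highest peak was 6.16, and 8 of the 20 stood above 6.61, the median over all such genes. With summits in exactly 1 gene of any kind, 15 of the 56 kept a peak (26.8%). Under the same rule, 6105 of the 21900 protein-coding genes kept one.

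In the wider list, breakdown and transport held the highest value. Slco2a1 had 7 peaks, the highest at 18.1 (11.9 to 26.4), on 25 fragments over a background of 0.438. Abcc4, an exporter of prostaglandins, had 2 peaks, up to 5.66 (3.14 to 9.57), and Zadh2, a prostaglandin reductase, had 1 at 5.13 (2.96 to 8.37). Ptgr1, Ptgr2 and Cyp4f18 held none, as did Hpgd.

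Among the receptor genes, Rxra, the retinoid X receptor that pairs with Ppard on DNA, had 8 peaks, the highest at 16.5 (11.3 to 23.4) on 30 fragments over 0.875. Ptger3 had 1 peak at 12.5 (8.24 to 18.2), Ptger2 had 1 at 5.82 (3.42 to 9.36), and both are receptors of prostaglandin E, like Ptger4. Ptgfrn, a membrane protein that associates with the prostaglandin F receptor, had 8 peaks up to 6.18 (3.69 to 9.81), and Rxrb had 2 up to 5.76 (3.67 to 8.67). Ptgir, the cell surface receptor of prostacyclin, held no peak, nor did Ptgfr, Ptgdr, Tbxa2r, Ppara or Pparg.

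Among the synthesis genes, Pla2g6, a phospholipase that needs no calcium, had 9 peaks, the highest at 9.74 (5.51 to 16.2), and 8 of the 9 lay in this gene only, with the summit of the other also in Gm20420. Pla2g4b had 1 peak at 14.4 (8.81 to 22.2), on 18 fragments over a background of 0.324. Its summit also lay in Gm28042, so it could not be assigned to a single gene. Alox12e, a lipoxygenase gene 21.4 kb from Alox15, had 5 peaks from 2.88 to 7.09, at backgrounds of 2.19 to 7.004. Whether fragments were shared between the lipoxygenase genes, which resemble each other, was not tested.

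Other synthesis genes with a peak were Cbr2, Akr1b8, Ptges3, Tbxas1, Pla2g12a, Pla2g10 and Lta4h. The first, a carbonyl reductase, had 2 peaks and stood highest at 7.52 (5.55 to 9.97). Lta4h, the hydrolase that makes leukotriene B, stood lowest at 3.03 (1.60 to 5.35). The summit of Tbxas1, thromboxane synthase, also lay in Hipk2, and that of Akr1b8 in Gm13858. Of the other terminal synthases, Ptges3 had 1 peak at 6.14 (4.26 to 8.59), while Ptges2, Ptgds and Hpgds held none, like Ptges.

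**Figure D4:**
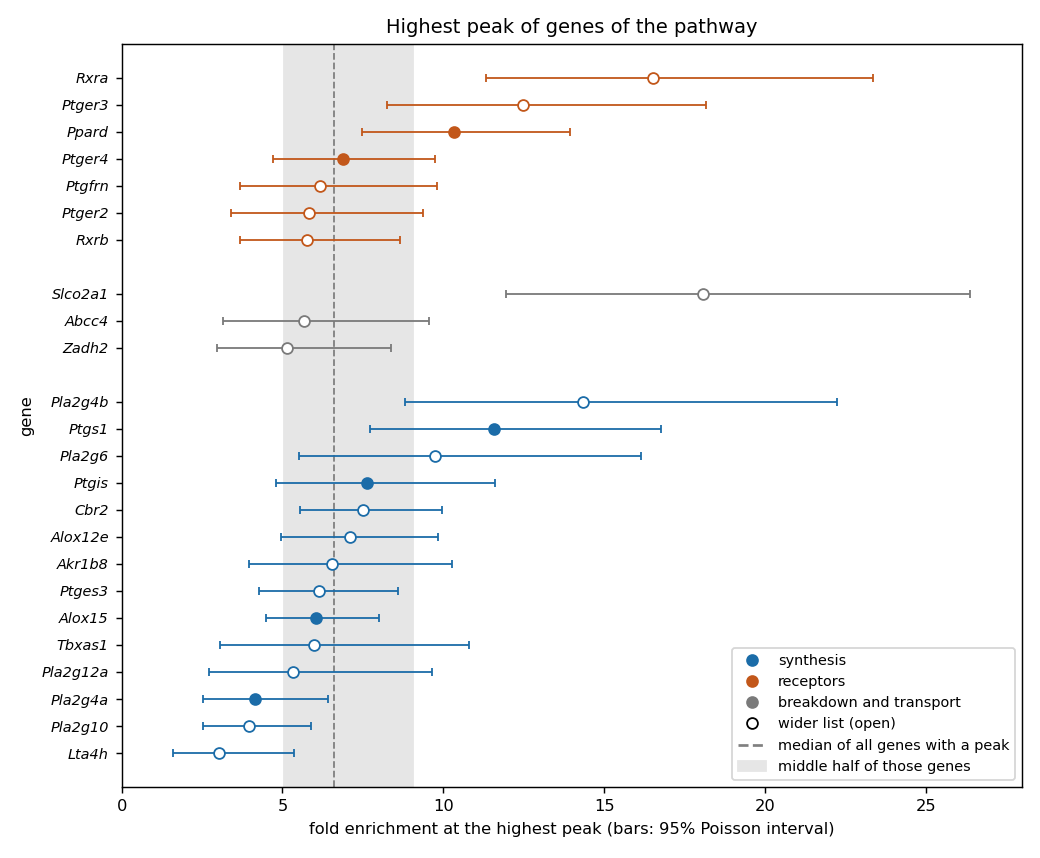
The horizontal axis is the fold enrichment at the highest peak of a gene, with 95% Poisson intervals, and genes are grouped by role. Filled points are the 6 genes described above and open points 18 genes of the wider list, and the dashed line and grey band are the median (6.61) and interquartile range (5.05 to 9.06) over protein-coding genes that hold a peak. Slco2a1 and Rxra stand farthest right, at 18.1 and 16.5.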

How the data were processed

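The values were those of 1 deposited peak list in narrowPeak layout, made from 1 ac4C immunoprecipitation library, with 1 input library beside it. Per the submitters' processing notes, HISAT2 2.2.1, MACS3 3.0.0a7 and build mm10 (GRCm38) were used. The role of each, the filters and the control given to the caller were not given in the sources used here. The authors deposited a fold enrichment (a ratio) for each peak, a −log10 p-value, a −log10 q-value, a score and the place of the summit. The largest q was 0.0499, and strand was given for 0 peaks.

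Genes came from a RefSeq table of GRCm38.p6 with 49997 genes, and promoter windows, which also gave strands, from RefSeq. Ptgis and Alox15 had no window. No exon table or genome was used, so no sequence of other peaks is shown.

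The whole number of fragments was sought at which the fold enrichment and the Poisson p-value both matched, with a pseudocount of 1 added to fragments and to background. It was found for 21192 of 21192 peaks within a relative tolerance of 1e-05. On data simulated with the same formula, it was right in 100% of peaks, which checks the calculation and not whether the caller used that formula. PCR copies were not told from molecules. Python 3.11.15 and scipy 1.17.1 were used.

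The 9 genes and the lists of pathway genes and markers were chosen with earlier results of these data known. Named were all 9 genes with their peaks, and those of the wider list that held a peak, except 2 genes of that list that are in its counts but not reported here. Alternatives changed the q and fold limits, the overlap with the gene, its ends, peak width and the summary over peaks. With 1 library in each group, no test between groups was made.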

Additional observations from a re-analysis of the deposited data

How the results depend on the processing

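The count of 6 genes with a peak was 5, without Pla2g4a, when the −log10 q had to reach 10 and when the fold enrichment had to reach the list median. It was 6 under the other 5 alternatives run. The 28 peaks became 15 under the q limit, and ranged from 20 to 28 under the other 6. That limit left 10 of the 20 wider pathway genes and 3851 of the 6717 protein-coding genes with a peak, and the fold limit left 4460, by construction in each case. The median at the highest peak ran from 6.08 to 7.63 over its 7 alternatives. No paired analysis was possible because each group had 1 library. The 28 peaks rested on 8 to 48 fragments each. Their intervals overlapped in 80 of 81 pairs within a gene, and those of the highest peaks in 13 of 15 pairs of genes. Such overlap does not show that the peaks were equal.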
